A study of Mus musculus with 6 samples.

Results

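The 5 NF-kB subunit genes Rel, Rela, Relb, Nfkb1 and Nfkb2 were followed in total RNA of regulatory T cells (Treg cells) sorted from mouse tumours. They were chosen by name: the rows whose Ensembl identifier maps to these symbols in the GENCODE M21 annotation, 5 of 54446 genes listed per library, and all 5 passed the filter on low counts. Treg cells are a Foxp3-expressing subset of CD4 T cells that holds immune responses in check. The study asks how their RNA changes when Ythdf2, a reader of N6-methyladenosine (m6A) in mRNA, is knocked out, and its title names NF-kB. The 3 libraries labelled Ythdf2 cKO came from Foxp3 Cre mice with both Ythdf2 alleles floxed (fl/fl), and the 3 libraries labelled WT Control from Foxp3 Cre mice with 1 floxed allele (fl/+). All mice therefore carry the Cre driven by Foxp3, all bore subcutaneous B16F10 tumours (a mouse melanoma line), and all cells were sorted as live CD45+ CD4+ Foxp3-GFP+ cells. Ythdf2 cKO replicate 1 and WT Control replicates 1 and 2 came from cage 1. Ythdf2 cKO replicates 2 and 3 and WT Control replicate 3 came from cage 2. The labels give no age and do not state whether libraries are separate animals, and the p-values then reflect only how these libraries vary, part of which may be technical.

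NF-kB transcription factors are dimers of Rel family proteins that share a DNA-binding and dimerization region, the Rel homology domain. Rel (c-Rel), Rela (p65) and Relb also carry a transactivation domain, whereas Nfkb1 and Nfkb2 encode the precursors p105 and p100, which are processed to p50 and p52. In the classical pathway, antigen and cytokine receptors lead to the release of c-Rel and p65 dimers from IkB inhibitors. In the alternative pathway, some TNF receptor family members trigger processing of p100, which frees RelB with p52. In Treg cells, c-Rel is known for its part in the induction of Foxp3, and p65 for the maintenance of Treg identity.

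Several Rel family genes are themselves known NF-kB targets, so their promoters are shown beside the members that they drive. RefSeq promoters (GRCm38.p6, the build also called mm10) were given for 3 of the 5 members: Rel, Rela and Nfkb2, the last with 3 start sites. The stretches below run 5′ to 3′ on the gene's strand over the 120 bases before the start site. Capitals mark matches of GGGANNNNCC on either strand, the letters common to many NF-kB sites, and overlapping matches were merged.
Rel, chr11:23770970-23771089, minus strand: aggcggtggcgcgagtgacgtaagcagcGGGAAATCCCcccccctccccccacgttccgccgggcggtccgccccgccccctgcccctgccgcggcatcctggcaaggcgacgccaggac
Nfkb2, first start site, chr19:46304617-46304736, plus strand: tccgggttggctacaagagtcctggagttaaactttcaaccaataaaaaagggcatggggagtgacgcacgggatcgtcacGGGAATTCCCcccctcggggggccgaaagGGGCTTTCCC
Rela, chr19:5637421-5637540, plus strand: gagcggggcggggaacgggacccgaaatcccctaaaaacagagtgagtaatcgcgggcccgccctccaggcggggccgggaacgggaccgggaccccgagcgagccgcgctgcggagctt
The Rel match begins 92 bases before the start site and reads on both strands. The first Nfkb2 promoter has such a match 39 bases before its start site and a second, on the minus strand, 10 bases before it. Rela has no match in the stretch shown and 1 farther out, 217 bases before the start. The full promoter entries are longer than the stretches shown, at 300 bases, of which 250 lie before the start site. Of 32851 RefSeq promoters of 300 bases, 20.7% hold GGGANNNNCC and 4.51% hold the kappa B consensus. That consensus differs in the letters it allows and is not marked by the capitals. Over the 300 bases it was found in the Rel and Nfkb2 promoters and not in that of Rela. A match is a run of letters and not a binding site.

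The libraries held 5602053 to 9960861 gene counts in the group labelled Ythdf2 cKO and 8923124 to 13602069 in WT Control, and each subunit was read 363 to 7229 times per library. All 14 Treg and T cell markers were read in every library, and Foxp3 stood at 323 to 606 CPM (counts scaled to library size after TMM normalization in edgeR). Under the label Ythdf2 cKO, Ythdf2 itself was at 89.8, 104 and 104 CPM, against 124, 102 and 92.8 CPM in WT Control, and did not pass the test (edgeR adjusted p = 1). Every direction given here is that of the labels. The libraries differed most by cage. The sum of 15 melanoma markers was 3074 to 4256 CPM of total gene counts in cage 2 and 70.3 to 678 CPM in cage 1, with 4 of them at 0 in Ythdf2 cKO replicate 1. The sum of the 14 Treg and T cell markers was 4063 to 8163 CPM in cage 2 and 10353 to 11450 CPM in cage 1. Mitochondrial rRNA made up 42.6% of gene counts in WT Control replicate 3 and 9.97% to 19.2% elsewhere. That library and Ythdf2 cKO replicate 1 lay at opposite ends of the first principal component, which held 59.4% of the variance. In bulk RNA, fewer cells of a type and less RNA per cell cannot be told apart.

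All 5 subunits were read in every library, and by mean level per transcript length Nfkb1 and Nfkb2 stood above the 3 transactivating members. Per length of the longest protein-coding transcript, Nfkb1 averaged 112 ± 37.1 RPKM (CPM divided by transcript length in kilobases) in the libraries labelled Ythdf2 cKO and 102 ± 22.2 RPKM in WT Control (SD, n = 3 each). It was the highest subunit in 6 of 6 libraries. Nfkb2 averaged 61.2 ± 17.8 and 48.8 ± 11.6 RPKM, and Rel 41.3 ± 5.17 and 46.3 ± 17.4 RPKM, in the libraries labelled Ythdf2 cKO and in WT Control. These 2 neighbours overlapped in range, and Nfkb2 was above Rel in 5 of 6 libraries. Rela averaged 34.7 ± 5.26 and 33.7 ± 4.02 RPKM, and Relb 29.4 ± 9.17 and 28.4 ± 2.35 RPKM, in the same order of groups. Rel was above Rela, and Rela above Relb, in 5 of 6 libraries each. The place of Nfkb1 depends on the length used: over all annotated exons, which for this gene span 12061 bases against 4117 in the transcript, Nfkb1 was below Nfkb2 in 6 of 6 libraries and below Rel in 5 of 6.

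Of the transactivating members, Rel (ENSMUSG00000020275, chromosome 11, 23736847 to 23770970) varied most. It was at 338, 323 and 265 CPM in Ythdf2 cKO replicates 1, 2 and 3, against 426, 416 and 196 CPM in WT Control replicates 1, 2 and 3. WT Control held both the highest library and the lowest, and the groups overlapped. Its log2 fold change of -0.17 had a standard error of 0.30 (edgeR quasi-likelihood test, adjusted p = 1), and its 95% interval ran from 0.552-fold to 1.44-fold.

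Rela (ENSMUSG00000024927, chromosome 19, 5637483 to 5648130), the p65 gene, varied least. It was at 108, 94.8 and 79.7 CPM in Ythdf2 cKO libraries, against 97.4, 98.3 and 78.9 CPM in WT Control. The highest library was 1.37 times the lowest, a smaller spread than that of most genes: 23.0% of 6011 protein-coding genes with a mean of at least 20 CPM had a smaller SD of log2 CPM. Its log2 fold change of 0.040 had a standard error of 0.17 (edgeR adjusted p = 1) and a 95% interval from 0.777-fold to 1.36-fold.

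Relb (ENSMUSG00000002983, chromosome 7, 19606217 to 19629438), the partner of p52 in the alternative pathway, was at 88.3, 52.3 and 54.2 CPM in Ythdf2 cKO libraries, against 67.2, 64.0 and 57.1 CPM in WT Control. Ythdf2 cKO replicate 1 was above all other libraries and the other two of its group were below all controls. Its log2 fold change of 0.046 had a standard error of 0.23 (edgeR adjusted p = 1) and a 95% interval from 0.708-fold to 1.51-fold.

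Of the precursor genes, Nfkb1 (ENSMUSG00000028163, chromosome 3, 135584655 to 135691547) was at 633, 400.4 and 346 CPM in Ythdf2 cKO libraries, against 452, 488 and 315 CPM in WT Control. The top library was Ythdf2 cKO replicate 1 and the bottom one WT Control replicate 3, and the groups overlapped. Its log2 fold change of 0.14 had a standard error of 0.27 (edgeR adjusted p = 1) and a 95% interval from 0.705-fold to 1.71-fold. Gm43430, a locus annotated within Nfkb1 on the same strand but sharing 0 exonic bases with it, was at 44.2, 50.6 and 45.7 CPM in Ythdf2 cKO libraries, against 44.7, 50.5 and 34.6 CPM in WT Control.

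Nfkb2 (ENSMUSG00000025225, chromosome 19, 46304320 to 46312385) had the largest log2 fold change of the 5, at 0.33 with a standard error of 0.26 (edgeR adjusted p = 1; unadjusted p = 0.25). It was at 308, 226 and 172 CPM in Ythdf2 cKO libraries, against 187, 233 and 144 CPM in WT Control, so the groups overlapped. The interval ran from 0.822-fold to 1.91-fold. Exons of Nfkb2 share 299 bases with Psd on the opposite strand, and Psd was read 66 times over all libraries against 12380 for Nfkb2.

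None of the 5 subunits differed between the groups past the threshold (an adjusted p under 0.05), where 0% of 13172 genes did with edgeR, 0% higher and 0% lower. DESeq2 and limma-voom also called 0 genes, and 213 genes had an unadjusted p under 0.05 with edgeR, 1.62% of those tested and none of them a subunit. The groups overlapped for all 5 subunits, where 7.62% of all genes did not overlap (3.4% with Ythdf2 cKO higher and 4.22% lower). Of the 5, 4 had a log2 fold change above 0 and 1 below, against 49.3% and 50.7% of all genes, and their median was 0.046 against -0.0049 for all genes. The sign of 4 of them turned without a single library. Without Ythdf2 cKO replicate 1 the log2 fold change of Rela was -0.075, of Relb -0.24 and of Nfkb1 -0.17, and without WT Control replicate 3 it was -0.029 for Rela and -0.0066 for Nfkb1. That of Rel was 0.0050 without WT Control replicate 1. That of Nfkb2 stayed above 0 with each library left out, but was 0.080 without Ythdf2 cKO replicate 1 and 0.19 without WT Control replicate 3, and it was 0.50 without WT Control replicate 2 or Ythdf2 cKO replicate 3.

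**Figure D1:**
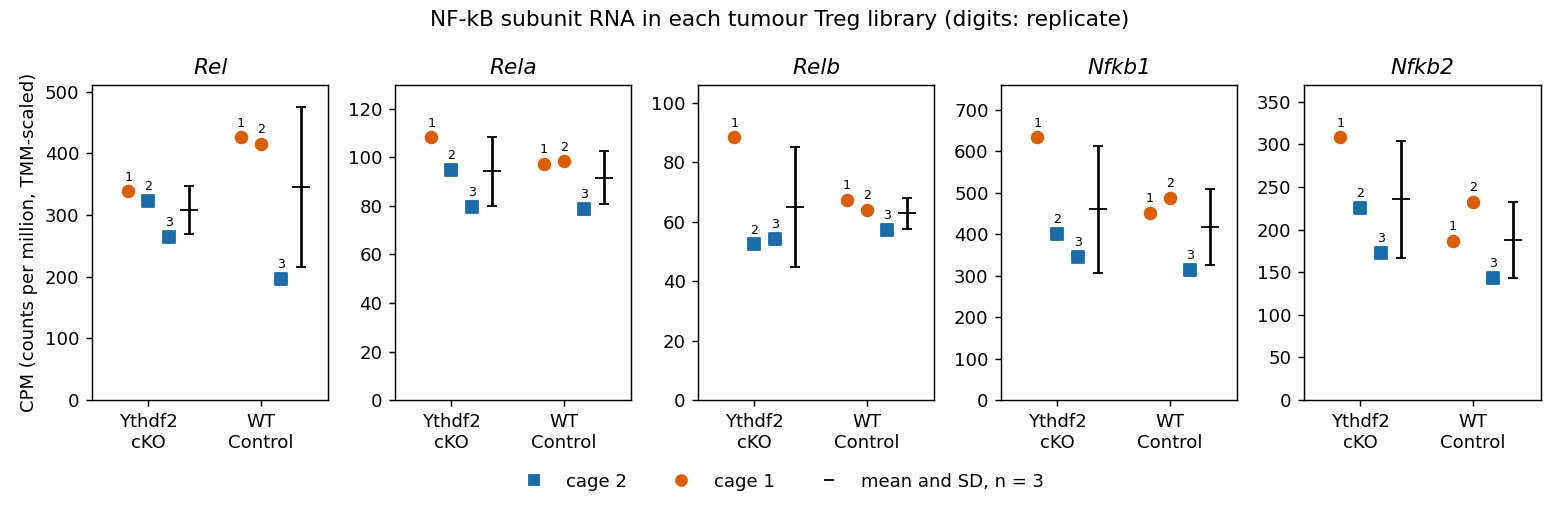
CPM of each NF-kB subunit (vertical axes from 0, one scale per gene) in the 3 libraries labelled Ythdf2 cKO and the 3 of WT Control, with orange circles for cage 1, blue squares for cage 2, digits for replicates, and black bars for the mean and SD. The groups overlap for all 5 genes, and for all but Nfkb2 each cage 2 library lies below each cage 1 library.

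Within each cage the subunits split into those that kept a direction and those that did not. In TMM-scaled CPM, Nfkb2, Nfkb1 and Rela were higher in every library labelled Ythdf2 cKO than in every control of the same cage. Of all genes, 14.5% showed this pattern. For Nfkb2 the difference of mean log2 CPM was 0.56 in cage 1 (1 library labelled Ythdf2 cKO and 2 controls) and 0.46 in cage 2 (2 libraries and 1 control). For Nfkb1 it was 0.43 and 0.24, and for Rela 0.15 and 0.14. For Rel the difference was -0.31 in cage 1 and 0.57 in cage 2, and for Relb 0.43 in cage 1 and -0.10 in cage 2. In all, 23.7% of genes lay on opposite sides in the 2 cages in this way.

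With cage as a term in the fit, the log2 fold change was 0.51 for Nfkb2, with a standard error of 0.15 (unadjusted p = 0.0083, edgeR adjusted p = 0.45). It was 0.34 for Nfkb1, with a standard error of 0.12 (unadjusted p = 0.021, edgeR adjusted p = 0.45). The other three had an unadjusted p of 0.32 to 0.54 in edgeR, with log2 fold changes of 0.13 for Rel, 0.14 for Rela and 0.17 for Relb. An unadjusted p under 0.05 was thus reached by 2 of 5 subunits in that fit, against 10.2% of all genes, and an adjusted one by 0 of 5, against 0%. Within cage 1 this difference rests on 1 library labelled Ythdf2 cKO (replicate 1), and within cage 2 on 1 control (replicate 3). These are the libraries at opposite ends of the first principal component. With cage as a term, the genotype difference was not computed with single libraries left out. Foxp3 had a log2 fold change of 0.25 in the same fit (unadjusted p = 0.059). The interaction of genotype and cage was 0.90 for Rel with a standard error of 0.26 (unadjusted p = 0.0074, edgeR adjusted p = 0.24) and -0.53 for Relb with a standard error of 0.28 (edgeR adjusted p = 0.43). It lay between -0.18 and -0.00076 for the other three, and 14.3% of all genes had an unadjusted p under 0.05 for it, while 0.0456% passed the threshold (0.0304% higher and 0.0152% lower). The interaction was above 0 for 1 of 5 subunits and below 0 for 4, against 59.5% and 40.5% of all genes.

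**Figure D2:**
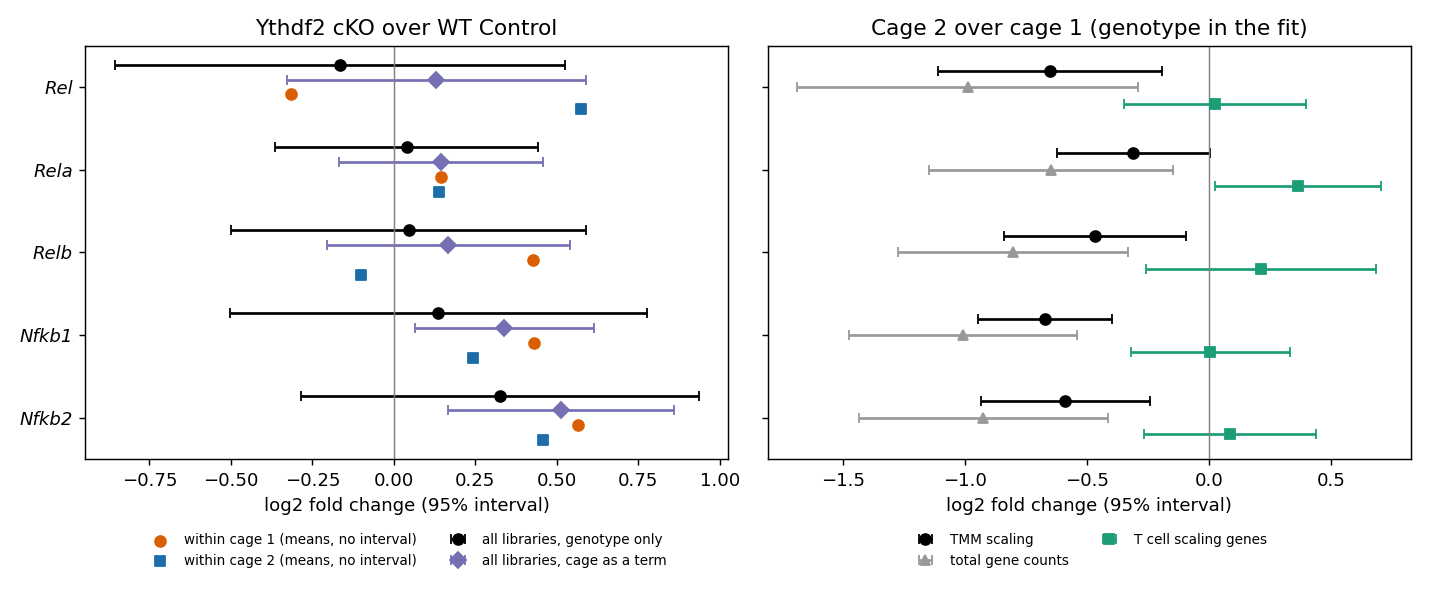
Log2 fold changes of the 5 subunits with 95% intervals, on the left for Ythdf2 cKO over WT Control with genotype only (black), with cage as a term (purple) and as means within cage 1 (orange) and cage 2 (blue). On the right is cage 2 over cage 1 with genotype in the fit, under TMM scaling (black), total gene counts (grey) and T cell scaling genes (green). The intervals of Nfkb1 and Nfkb2 clear 0 on the left with cage as a term (unadjusted), and all 5 cage differences move to or above 0 under T cell scaling.

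The share of each subunit in the total of the 5 does not depend on how libraries are scaled. The share of Nfkb2 in the summed RPKM was 22.3%, 22.8% and 20.5% in Ythdf2 cKO replicates 1, 2 and 3, against 17.2%, 20.2% and 19.1% in WT Control replicates 1, 2 and 3. The groups did not overlap, and neither did they with lengths over all exons (30.1%, 29.0% and 26.5%, against 22.1%, 26.0% and 25.2%). This was 1 of 5 shares compared, and was given no test because the members were chosen with results known. Nfkb1 held 39.7 ± 2.75% in the libraries labelled Ythdf2 cKO and 39.2 ± 0.253% in WT Control (SD, n = 3 each). Rel held 15.2 ± 2.26% and 17.4 ± 3.52%, Rela 12.7 ± 1.38% and 13.2 ± 1.48%, and Relb 10.5 ± 1.16% and 11.2 ± 1.83% in the same order, and these shares overlapped between the groups. Of the 10 ratios between 2 subunits, the groups did not overlap for 1, Nfkb2 over Nfkb1. In CPM of single genes 7.62% did not overlap. No such percentage was computed for ratios or shares, so a count of 1 sets no subunit apart. The ratios of Nfkb2 to Rel, Rela and Relb overlapped between the groups. The log2 ratio of Nfkb2 to Nfkb1 in CPM was -1.04, -0.83 and -1.01 in the libraries labelled Ythdf2 cKO, against -1.28, -1.07 and -1.13 in WT Control. The lowest library labelled Ythdf2 cKO (replicate 1) lay just above the highest control (replicate 2).

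**Figure D3:**
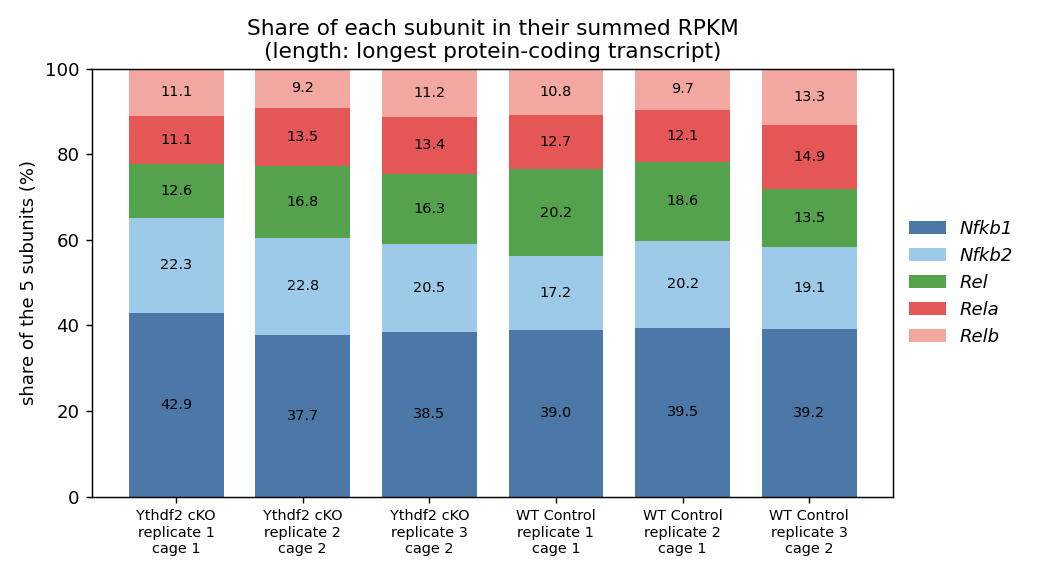
Stacked bars give the share of each subunit (%) in the summed RPKM of the 5 genes in each library, with length taken from the longest protein-coding transcript. Nfkb1 takes 37.7% to 42.9% in every library, and the Nfkb2 band is wider in the 3 libraries labelled Ythdf2 cKO (20.5% to 22.8%) than in WT Control (17.2% to 20.2%).

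The larger contrast among these genes was between cages. With genotype in the fit, Nfkb1 was lower in cage 2 (log2 fold change -0.67, standard error 0.12, edgeR adjusted p = 0.0095, 0.628-fold) and so was Nfkb2 (-0.59, standard error 0.15, edgeR adjusted p = 0.040, 0.665-fold). Rel (-0.65, edgeR adjusted p = 0.074), Relb (-0.47, edgeR adjusted p = 0.11) and Rela (-0.31, edgeR adjusted p = 0.19) did not pass. Thus 2 of 5 subunits passed as lower and 0 as higher, against 3.68% and 7.83% of all genes (11.5% in either direction). All 5 were below 0, as were 49.2% of all genes, and 50.8% were above. Nfkb1 was at 400.4, 346 and 315 CPM in the cage 2 libraries (Ythdf2 cKO replicates 2 and 3 and WT Control replicate 3), against 633, 452 and 488 CPM in those of cage 1 (Ythdf2 cKO replicate 1 and WT Control replicates 1 and 2). The cages did not overlap in that direction for 4 of the 5 subunits, all but Nfkb2, and for 12.2% of all genes.

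These calls rest on single libraries and on the scaling. Without Ythdf2 cKO replicate 1 or 3 the adjusted p of Nfkb1 was 0.10 or 0.052 (edgeR, log2 fold change -0.59 or -0.61). That of Nfkb2 was between 0.11 and 0.23 (edgeR, log2 fold change -0.61 to -0.50) without Ythdf2 cKO replicate 1 or 3 or WT Control replicate 2 or 3. Rel passed without Ythdf2 cKO replicate 1 (log2 fold change -1.11, edgeR adjusted p = 0.015), and its log2 fold change was -0.19 without WT Control replicate 3. Relb was at -0.21 without Ythdf2 cKO replicate 1 and -0.71 without WT Control replicate 3.

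T cell genes moved with the subunits. Foxp3 was lower in cage 2 by a similar amount (log2 fold change -0.65, standard error 0.12, edgeR adjusted p = 0.0091). When libraries were instead scaled to the summed counts of 7 T cell genes (Cd3e, Cd3d, Cd3g, Cd247, Cd2, Cd5 and Lck), the cage difference was 0.0068 for Nfkb1, 0.026 for Rel, 0.087 for Nfkb2, 0.21 for Relb and 0.37 for Rela, and none passed (edgeR adjusted p from 0.081 to 0.97). That scaling raised the median of all genes by 0.68, so that all 5 subunits lay below the median gene under either scaling. Per 1000 reads of the T cell genes, Nfkb1 had 212, 205 and 224 reads in cage 2 and 246, 184 and 192 in cage 1, and Rel had 171, 157 and 139.7 in cage 2 and 131, 173 and 164 in cage 1. On this scale the cages overlapped for both genes. The melanoma marker sum given above also separated the cages, and its part in the subunits' values was not tested. For Rela the cages did not overlap, with 50.2, 47.3 and 56.2 reads in cage 2 and 42.1, 39.6 and 38.7 in cage 1.

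In the fit without cage, the same scale leaves the comparison of genotypes about where it was. Nfkb2 had 120, 120 and 102 reads per 1000 T cell gene reads in the libraries labelled Ythdf2 cKO, against 75.9, 91.5 and 102 in WT Control. Ythdf2 cKO replicate 3 lay just below WT Control replicate 3, so the groups overlapped by that pair of libraries alone. Nfkb1 had 246, 212 and 205 reads in the libraries labelled Ythdf2 cKO, against 184, 192 and 224 in WT Control. Within cage 1 the library labelled Ythdf2 cKO was above both controls for Nfkb2, Nfkb1 and Rela on this scale. Within cage 2 both such libraries were below the control for Nfkb1 and for Rela (50.2 and 47.3 reads against 56.2). The within-cage pattern given above for CPM thus did not hold here, and no genotype difference with cage as a term was computed on this scale. The log2 fold change under this scaling was 0.34 for Nfkb2 (unadjusted p = 0.14), 0.15 for Nfkb1, 0.055 for Rela, 0.018 for Relb and -0.052 for Rel (edgeR adjusted p = 1 for each).

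The other genes of the pathway were taken from 7 lists, with 93 genes besides the subunits, 90 of them tested. Between the genotypes 0 passed in either direction, against 0% of all genes; 47 had a log2 fold change above 0 and 43 below, and 0 had an unadjusted p under 0.05. Among receptors that signal to NF-kB, 6 of 13 tested were above 0, and Il18r1, the interleukin-18 receptor chain, had the smallest p, at a log2 fold change of 0.34 (303, 201 and 167 CPM in Ythdf2 cKO libraries against 150, 234 and 145 CPM in WT Control). Of TRAF and cIAP adaptors, which carry the signal from TNF receptors, 8 of 9 were above 0. Birc2, a cIAP ubiquitin ligase, was at 351, 226 and 172 CPM in Ythdf2 cKO libraries, against 175, 251 and 152 CPM in WT Control. Its order of libraries was that of Nfkb2, with WT Control replicate 2 between Ythdf2 cKO replicates 1 and 2.

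Of the IKK kinases and their activators, 8 of 16 were above 0. The smallest p-values belonged to Ripk1, the kinase at the TNF receptor, with a log2 fold change of 0.24, and Prkcq, the T cell receptor kinase PKC-theta, with -0.38. Of the 6 IkB proteins 4 were above 0, and the smallest p belonged to Bcl3, a nuclear IkB protein that binds p50 and p52, at 0.20 (91.2, 57.7 and 54.8 CPM in Ythdf2 cKO libraries against 58.1, 64.1 and 54.9 CPM in WT Control). Of the brakes 8 of 11 were above 0, with the smallest p for Rnf11, a member of the A20 ubiquitin-editing complex, at 0.42. Of 16 cofactors and turnover factors 7 were above 0, with the smallest p for Sirt1, a deacetylase of p65, at 0.37. Of 32 NF-kB targets tested, a list that holds 4 of the subunits, 16 were above 0, with a median of -0.0023. The smallest p there belonged to Bcl2l1, the survival gene for BCL-XL, at -0.27 (unadjusted p = 0.17), and none of these values passed (edgeR adjusted p = 1 for each). With cage as a term 62 of the 90 were above 0, against 46.3% of all genes, 17 had an unadjusted p under 0.05 against 10.2%, and 0 passed. The T cell scaling genes summed to 2813 CPM of total gene counts in the Ythdf2 cKO library of cage 1, against 2656 and 2770 in its controls. In cage 2 the sums were 1971 and 1759, against 1001 in the control, and their part in this count was not tested. Under T cell scaling without cage, 52 of the 90 were above 0, against 49.5% of all genes, and 0 had an unadjusted p under 0.05.

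Between cages, 74 of the 90 were below 0, against 49.2% of all genes, with a median of -0.38 against 0.013. Of these 90, 20 passed as lower in cage 2 and 2 as higher, against 3.68% and 7.83% of all genes. Of the 6 IkB proteins, all 6 were below 0 and 4 passed as lower. Nfkbia, the classical IkB-alpha that holds c-Rel and p65 dimers in the cytoplasm, was at 563, 499 and 448 CPM in cage 2 and 824, 750 and 710 CPM in cage 1 (log2 fold change -0.67, edgeR adjusted p = 0.0075). Nfkbie (-0.67), Nfkbiz (-0.56) and Nfkbid (-0.54) also passed. All 4 were between 0.0052 and 0.15 when scaled to the T cell genes.

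Receptors held calls in both directions, with 4 lower and 1 higher of 13, as did the targets, with 10 lower and 1 higher of 32. Tnfrsf9 (4-1BB) and Tnfrsf18 (GITR), costimulators known from activated Treg cells, each changed by -0.79 or -0.78, and Tnfrsf1b, the TNF receptor 2, by -0.61. Il1rl1, the interleukin-33 receptor, changed by -1.10 (edgeR adjusted p = 0.0011) and stood at -0.42 under T cell scaling. Ltbr, the lymphotoxin beta receptor, which stromal and myeloid cells carry and lymphocytes lack, went the other way, at 10.1, 17.0 and 13.2 CPM in cage 2 and 0, 0.264 and 1.15 CPM in cage 1. The target Tnfaip2 did the same, at 4.81, 10.6 and 24.5 CPM in cage 2 and 0.653, 1.67 and 1.62 CPM in cage 1. The sum of 14 macrophage and monocyte markers was 163 to 411 CPM of total gene counts in cage 2 and 10.7 to 116 CPM in cage 1. Of them, 0 to 3 were at 0 in the cage 2 libraries and 1 to 8 in those of cage 1. In Ythdf2 cKO replicate 2 (cage 2), Apoe was at 136 CPM, Lyz2 at 6.54 CPM and C1qa, C1qb and Itgam at 0. The mean log2 of CPM plus 1 over the 14 was 1.35 in that library. It was 1.42 and 2.33 in WT Control replicates 1 and 2 (cage 1), so by that mean the cages overlapped. The part of these markers, and of the melanoma markers given above, in these results was not tested.

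Of adaptors and kinases, Traf3 (-0.72), which holds the alternative pathway in check, Birc2 (-0.66) and Tank (-0.62) were among those that passed as lower. Of brakes, Tnip1 (-0.48), Cyld (-0.46) and Zc3h12a (-0.50) did, and of cofactors Pdlim2 (-0.98), a nuclear ubiquitin ligase for p65. Of 32 targets 10 passed as lower, among them Gadd45b (-0.94), Junb (-0.78), Icam1 (-0.63), Ier2 (-0.48) and the subunits Nfkb1 and Nfkb2 themselves. Under T cell scaling 0 of the 90 were lower past the threshold and 22 higher, against 0.0987% and 39.2% of all genes.

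**Figure D4:**
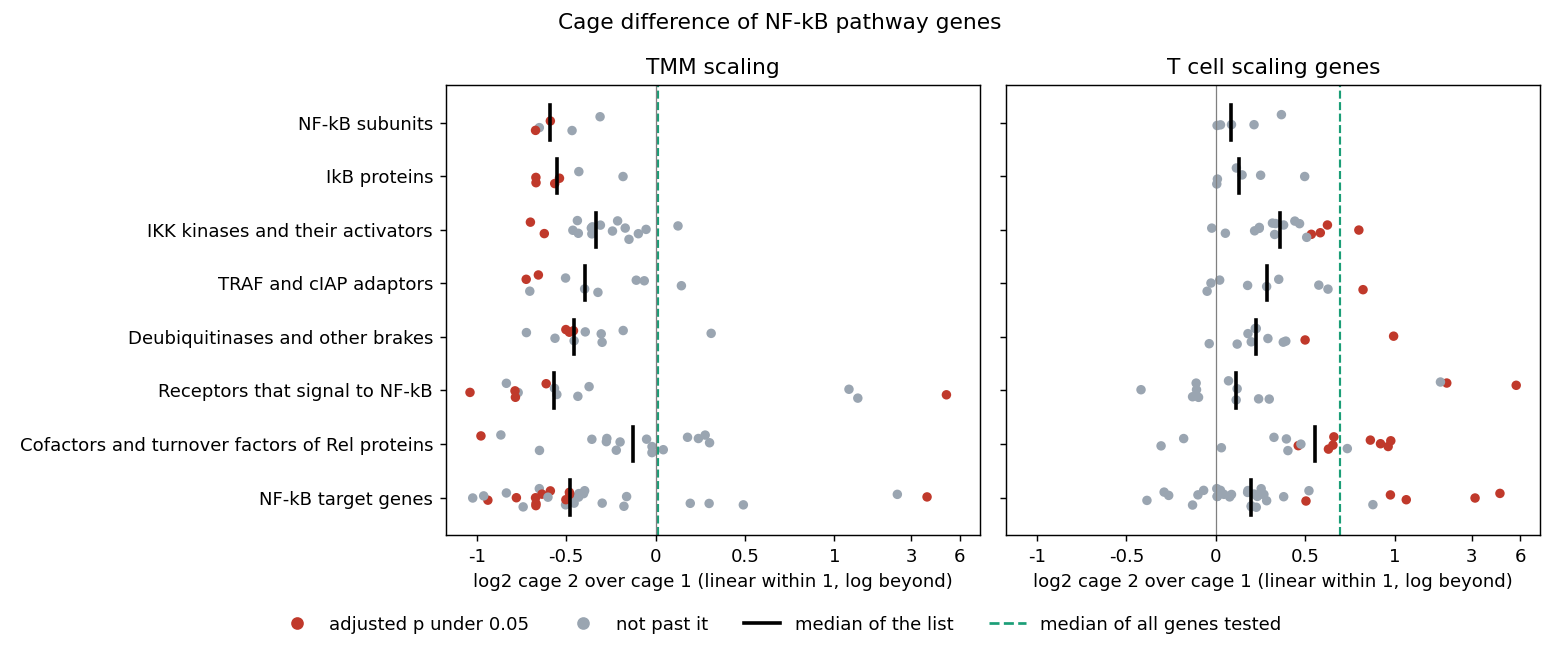
Each dot is 1 gene of the NF-kB subunits or of a pathway list, placed by its log2 difference of cage 2 over cage 1 (linear within 1, log scale beyond), red where the adjusted p is under 0.05, with a black bar for the list's median and a dashed green line for the median of all genes tested. Under TMM scaling (left) every list's median lies below 0, from -0.59 to -0.12, and under T cell scaling (right) every one lies above 0 and below the 0.69 of all genes.

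Genes whose pattern over the 6 libraries was most like that of each subunit were sought among the protein-coding genes with a mean of at least 20 CPM, by Pearson's r of log2 CPM, given as a description only. The 6 libraries also differ in cage and in the sum of the melanoma markers, so no p is given. For Rel these were Map4k1, Lmnb1 and Ucp2 (r = 0.99 each), all highest in WT Control replicates 1 and 2 and lowest in WT Control replicate 3. For Rela they were Ablim1, Trp53i11 and Neurl4, for Relb Ctdp1, Il4ra and Slu7, for Nfkb1 Atp2b1, Son and Adamts10, and for Nfkb2 Tut7, Picalm and Rsbn1l (r from 0.987 to 0.999). No subunit was among the 3 genes most like another. Atp2b1, the nearest to Nfkb1, was at 348, 276 and 255 CPM in Ythdf2 cKO libraries, against 298, 306 and 242 CPM in WT Control.

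Since the gene targeted in the study encodes an m6A reader, the letters GGACT, a frequent form of the m6A motif, were counted in the longest protein-coding transcript of each gene. Rela had 6 in 2716 bases (2.21 per kilobase) and Nfkb2 8 in 3846 (2.08 per kilobase), more per kilobase than 92.3% and 90.5% of 11404 genes tested. Relb had 3 in 2209 bases (1.36 per kilobase), Nfkb1 3 in 4117 (0.729 per kilobase) and Rel 3 in 7466 (0.402 per kilobase), the last above 12.9% of genes. The median was 1.04 per kilobase, and 92.7% of genes held at least 1. These counts describe letters and not methylation, which was not measured in these libraries.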

How the data were processed

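Total RNA of sorted tumour Treg cells was sequenced from stranded libraries (a SMARTer kit), as the labels' protocols state. The authors deposited raw read counts per gene, 1 table per library. Trimmomatic 0.39, HISAT2 2.1.0, HTSeq, DESeq2 and mm10 are named per the submitters' processing notes, but for annotation release and strand setting nothing is given in the sources used here, and antisense reads may not be told apart. Of 54446 genes, 54409 matched GENCODE M21. Reads in no gene (24.6% to 35.8% of records), ambiguous reads (1.43% to 2.21%), reads aligned to several places (9.22% to 12.9%) and 92 spike-in rows stayed out.

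Counts were filtered with filterByExpr (minimum count 10, total 15), scaled by TMM and tested with edgeR 4.0.16 (quasi-likelihood, R 4.3.3), adjusted by Benjamini and Hochberg over 13172 genes at a threshold of 0.05. The first fit held genotype only, the second added cage, the third their interaction (2 residual degrees of freedom). RPKM divides TMM-scaled CPM by transcript length. log2 CPM used a prior count of 2. Alternatives used DESeq2 1.42.0 and limma 3.58.1. The fits were checked on simulated counts. Named genes were the 5 subunits, the listed genes past the threshold, otherwise the 3 with the smallest p per list, and the 3 genes most like each subunit. The members and lists were chosen with earlier results of these data known.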

Additional observations from a re-analysis of the deposited data

Results flagged for a closer look

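Rel and Relb lay on opposite sides of the controls in the 2 cages. For Rel the library labelled Ythdf2 cKO was below both controls in cage 1 and both were above the control in cage 2, and the interaction of genotype and cage was 0.90 on the log2 scale (edgeR unadjusted p = 0.0074, adjusted p = 0.24). For Relb the sides were the other way round, with an interaction of -0.53 (edgeR unadjusted p = 0.096, adjusted p = 0.43). Neither passed the threshold, and 23.7% of all genes lay on opposite sides in this way. Both interactions rest on 1 library labelled Ythdf2 cKO in cage 1 (replicate 1) and 1 control in cage 2 (replicate 3). With total gene counts as the only scaling, the interaction was 1.44 for Rel and 0.011 for Relb.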

How the results depend on the processing

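Between the genotypes 0 genes passed, and 33 without the low-count filter. With both Ythdf2 cKO replicate 1 and WT Control replicate 3 left out, an alternative chosen after seeing the data, 460 passed, but the groups are then the cages, so genotype and cage cannot be told apart. With each library left out the count was 0. Between cages 1516 passed, 849 with cage as the only term, 5175 with T cell scaling, and 660 to 1233 with each library left out. For the interaction 6 passed, and 30 with total gene counts as the only scaling.

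No subunit passed between the genotypes in any alternative run. The log2 fold change of Rel turned to 0.13 with cage as a term and 0.57 within cage 2. With sample quality weights those of Rela, Relb and Nfkb1 were -0.067, -0.21 and -0.13, and with limma-voom that of Relb was -0.035. Within cage 2 it was -0.10. With both libraries left out those of Rela, Relb, Nfkb1 and Nfkb2 were -0.16, -0.29, -0.32 and -0.065. With each library left out the range was -0.42 to 0.0050 for Rel, -0.075 to 0.14 for Rela, -0.24 to 0.17 for Relb, -0.17 to 0.30 for Nfkb1 and 0.080 to 0.50 for Nfkb2.

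Between cages, T cell scaling turned all 5, to 0.026 for Rel, 0.37 for Rela, 0.21 for Relb, 0.0068 for Nfkb1 and 0.087 for Nfkb2. With cage as the only term neither Nfkb1 (-0.57, edgeR adjusted p = 0.068) nor Nfkb2 (-0.42, edgeR adjusted p = 0.31) passed, and with total gene counts Relb did (-0.80, edgeR adjusted p = 0.039). For the interaction, total gene counts turned Rela to 0.54, Relb to 0.011, Nfkb1 to 0.36 and Nfkb2 to 0.46. Total counts moved the median of all genes by 0.14 between the genotypes, -0.34 between cages and 0.54 for the interaction.

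The replicate numbers were not taken to pair the libraries. Deviations from the group means correlated at 0.41, -0.24 and 0.55 for numbers 1, 2 and 3. Numbers 1 and 3 join libraries of the same cage and number 2 does not, so these values cannot decide whether the numbers pair libraries. With the replicate block 0 genes passed, and Nfkb2 was at 0.31, Nfkb1 at 0.11, Rela at 0.038, Relb at 0.0090 and Rel at -0.091.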
